A study of Mus musculus with 12 samples.

Results

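The lysosome is the acidic compartment in which cells break down proteins, glycans and lipids delivered by endocytosis and autophagy. Its soluble hydrolases, among them the cathepsins, glycosidases, sulfatases and lipases, act inside a membrane protected by heavily glycosylated proteins such as LAMP1 and LAMP2, and a proton pump, the V-ATPase, keeps the lumen acidic. Many of these genes are under the control of the transcription factor TFEB and its relatives, and loss of single enzymes causes the lysosomal storage diseases. Fibroblasts and macrophages both carry lysosomes, and macrophages are known for high levels of several proteases.

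A set of 41 genes of lysosomal enzymes and membrane proteins was taken as a fixed list of symbols. The rule itself uses no measured value, but the list was drawn up with earlier results of these data known. Each symbol matched 1 row of the 55573 genes counted. The list held 12 cathepsins and other proteases, 10 glycosidases, 5 sulfatases, 6 genes of lipid and thioester breakdown and their activators, 2 cholesterol exporters, 5 membrane proteins and the gene of the transcription factor TFEB. All 41 genes passed the filter on low counts and were among the 19174 genes tested.

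RNA was sequenced from mouse embryonic fibroblasts (MEFs) of C57BL/6 background, grown from E13.5 embryos and carrying a doxycycline-inducible cassette of Oct4, Sox2, Klf4 and Myc (OSKM). Cells of 3 clones, each from 1 embryo, were grown for 72 h in 4 groups of 3 libraries: MEF (no doxycycline, no added vitamin B12), MEF+B12 (2 µM B12), OSKM (1 µg/ml doxycycline) and OSKM+B12 (both). All groups carried the cassette, and all were grown in medium for induced pluripotent stem cells. Because uninduced cells got no doxycycline, effects of the drug itself and of OSKM cannot be told apart, and the methods of the study give another unit for its dose than the labels. Each clone stands for 1 embryo. With clone as a term in the fit, the p-values rest on how group differences varied between these 3 embryos, estimated over all 12 libraries. Differences in level that an embryo kept in all groups are taken out by that term. The MEF libraries serve both the induction comparison and the B12 comparison, and each other group is shared in the same way.

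Library totals lay between 56971244 and 79236795 counts, and the 41 genes took between 1.10% and 1.62% of them. Pou5f1, which encodes Oct4, was at most 0.468 CPM (counts scaled to library size) in uninduced libraries. It was between 18.5 and 20.7 CPM in induced libraries of clones 1 and 2 but only 2.34 and 2.86 CPM in those of clone 3. Clone 1 stood apart in another way: its library titles carry a later year, and Xist, the RNA of the silenced X chromosome in female cells, was at most 0.0289 CPM there against at least 219 CPM in clones 2 and 3. The 11 fibroblast markers summed to between 85510 and 137000 CPM in all 12 libraries, so the labelled cell type was present throughout.

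Levels were compared between genes only as RPKM, which divides CPM by the length of a gene's merged exons in kilobases. Psap, the precursor of the saposins that help degrade sphingolipids, had the highest mean level, 613 RPKM over the 12 libraries, with single libraries from 489 to 759 RPKM. It was followed by Ctsd (cathepsin D, an aspartic protease) at 447 RPKM, Lamp1 at 354 RPKM and Ctsb (cathepsin B, a cysteine protease) at 340 RPKM. Ctsd was above Ctsb in 12 of 12 libraries and above Lamp1 in 11, whereas Lamp1 was above Ctsb in 8, so the order of those last genes was within their spread. Tfeb was lowest at 2.27 RPKM, next to Atp6v0d2 at 2.51 RPKM, an alternative d subunit of the V-ATPase known from osteoclasts and macrophages, and each was the lower of the pair in 6 of 12 libraries. Psap lay at percentile 99.7 of all genes tested and Tfeb at percentile 43.3. The order depended on the length used. With the longest transcript as length, Atp6v0d2 was lowest at 2.68 RPKM and Tfeb was at 5.48 RPKM. Ctsb (434 RPKM) then lay above Lamp1 (425 RPKM), and Lamp2 moved from rank 16 to rank 9. On the CPM scale, Ctsb, Psap and Ctsd together made up 35.9% of the summed level of the 41 genes. For Ctsd, 33.2% of the sequence words of its transcripts were shared with Gm49369, an overlapping gene on the same strand, and its counts are uncertain to that extent. The next highest shares were 7.68% for Ctsl and 5.13% for Glb1.

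**Figure D1:**
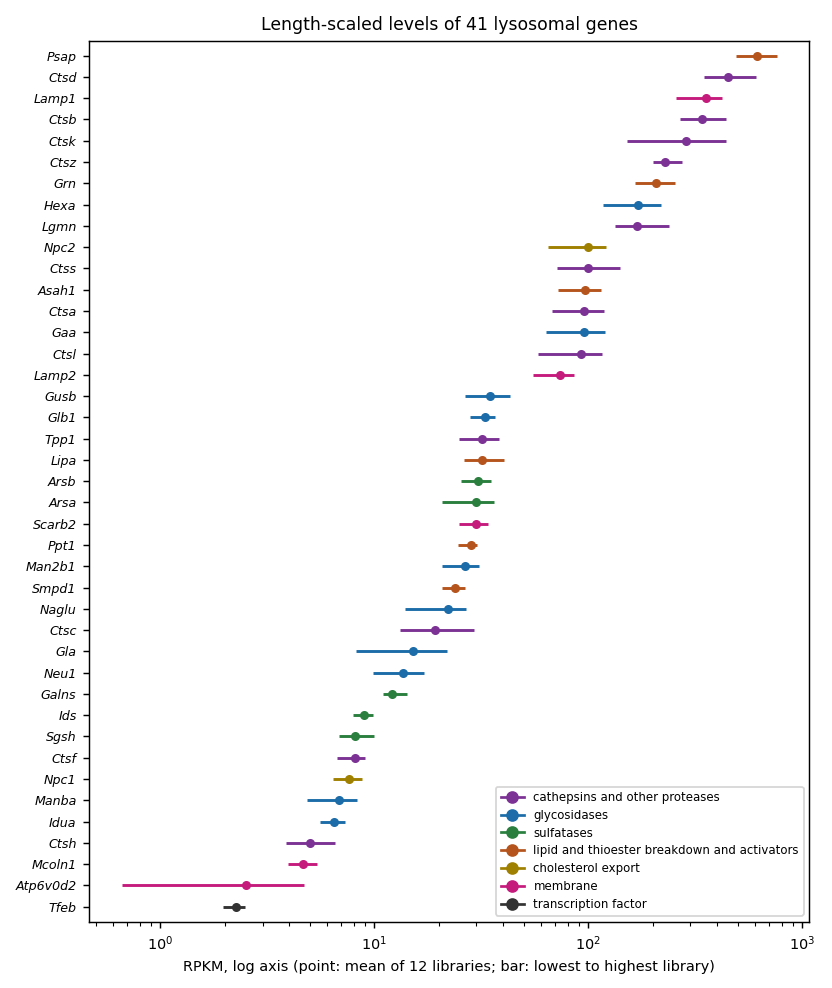
Mean RPKM of each of the 41 genes over 12 libraries (points) and the range from the lowest to the highest library (bars), on a log axis, coloured by role. With merged exons as length, Psap leads at 613 RPKM and Tfeb is last at 2.27 RPKM, and neighbouring genes mostly overlap in range.

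TFEB and its relatives bind E-boxes with the core CACGTG, flanked in many lysosomal promoters to give TCACGTGA. Promoter windows of 300 bases (250 before to 50 after the annotated start, RefSeq on GRCm38.p6) were searched for both, and as both are palindromes a match reads the same on either strand. Every match to TCACGTGA is also a match to the core. Of the 41 genes, 35 had a window, and Ctsb, Ctsh, Npc1, Galns, Asah1 and Atp6v0d2 had no entry. The core was present in 13 of the 35 genes (37.1%) against 8.09% of all 27025 genes with a window. The longer form was present in 4 (Ctsa, Ctsd, Gla and Mcoln1), which is 11.4% against 1.12% of all genes. A match describes the letters only and says nothing of binding in these cells. The 30-base stretches printed here hold matches in Ctsd and Lgmn, which rose with B12, in Gla, which differed between clones, and in Mcoln1, Ctsa and Lamp1. They are read 5′ to 3′ on the strand of the gene, with the match in capitals.
Ctsd: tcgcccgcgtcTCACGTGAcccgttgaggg
Lgmn: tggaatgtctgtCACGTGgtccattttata
Gla, first match: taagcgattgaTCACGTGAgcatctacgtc
Gla, other match: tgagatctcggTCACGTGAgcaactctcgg
Mcoln1: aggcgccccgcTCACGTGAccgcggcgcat
Ctsa: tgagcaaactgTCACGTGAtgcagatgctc
Lamp1: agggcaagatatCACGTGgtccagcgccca

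The Ctsd stretch lies at chr7:142387908-142387937 on the minus strand, with its match starting 99 bases before the RefSeq start. In GENCODE the gene begins further upstream, at 142388038, so the stretch lies inside it. The stretches of Lgmn, Mcoln1 (GENCODE start 3500457) and Ctsa also lie inside their GENCODE genes. The Lgmn stretch, at chr12:102439124-102439153 on the minus strand, belongs to the second of 2 annotated windows of that gene, 49 bases before its start. The first window of Lgmn held no match. The Gla stretches are at chrX:134601215-134601244 and chrX:134601182-134601211 on the minus strand. The stretches of Mcoln1 at chr8:3500462-3500491, of Ctsa at chr2:164833749-164833778 and of Lamp1 at chr8:13159088-13159117 are on the plus strand, and Lamp1 held 4 cores in its window. The Ctsa stretch belongs to the second of 2 annotated windows of that gene, and the first held no match. No core was found in the windows of Ctsc, Ctss and Gusb, the other genes of the list that rose with B12.

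The first question was how B12 changed these genes, with the B12 difference averaged over uninduced and induced cells as the most precise estimate. Of the 41 genes, 5 rose and 0 fell, where 3.46% of all genes tested rose and 0.381% fell (edgeR quasi-likelihood test with Benjamini-Hochberg adjustment, threshold 0.05). The genes that rose were Ctsc, Ctsd, Ctss and Lgmn, all proteases, and Gusb, a glycosidase, and the rises lay between 1.19-fold and 1.42-fold. At an unadjusted p under 0.05, 12 were higher (8.75% of all genes) and 1 was lower (6.71%), and DESeq2 called 9 (5.39% of all genes), of which Gaa was the one that fell. By direction alone, 29 of the 41 log2 fold changes were above 0, against 44.9% of all genes, and their median was 0.06, against -0.01 over all genes tested. Within the states, 1 gene rose in induced cells and 2 rose in uninduced cells, and 0 fell in either (0.0156% and 0.00522% of all genes). At an unadjusted p under 0.05, 7 were higher and 2 lower in induced cells (6.16% and 3.66% of all genes), and 10 were higher and 0 lower in uninduced cells (6.47% and 3.82%). With the clone left out of the model, Gusb alone passed on average, where 0.469% of all genes rose. No gene of the list then passed within a state, nor did any of all genes (0.00%).

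Ctsc encodes cathepsin C (dipeptidyl peptidase I), which activates serine proteases of immune cells. It lies on chromosome 7, 88278085 to 88310888 (ENSMUSG00000030560). Its level was 120.4, 78.9 and 82.5 CPM in MEF of clones 1 to 3 and 169.7, 119.7 and 115 CPM in MEF+B12. In induced cells it was 113, 76.9 and 81.9 CPM in OSKM and 142, 119 and 116 CPM in OSKM+B12. Every clone was higher with B12 in both states. In induced cells the lowest library with B12 lay above the highest without, whereas the uninduced groups overlapped, with clone 1 the highest in both. Averaged over the states, the log2 fold change was 0.51 ± 0.04 (SE; adjusted p 0.000206). Ctsc was also the single gene of the list to pass in induced cells (0.49 ± 0.06, adjusted p 0.00667, where 1.05% of all genes rose). That call ended in 5 of 15 fits that left out a clone or a library: clone 2 (adjusted p 0.384), clone 3, the OSKM or OSKM+B12 library of clone 2, or the OSKM+B12 library of clone 3.

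Gusb encodes β-glucuronidase, which removes glucuronic acid from glycosaminoglycans (chromosome 5, 129989011 to 130003049). It had 151, 150.1 and 143 CPM in MEF and 185, 196 and 180.5 CPM in MEF+B12. In OSKM it had 121, 132 and 144 CPM, and in OSKM+B12 146.5, 162 and 178 CPM. The groups with and without B12 did not overlap in either state. On average its log2 fold change was 0.32 ± 0.05 (adjusted p 0.0040). In uninduced cells, Gusb (0.34 ± 0.07, adjusted p 0.0417) and Ctsc (0.52 ± 0.06, adjusted p 0.00398) were the 2 genes that rose, where 1.37% of all genes rose. In uninduced cells the Gusb call ended in 9 of the 15 fits without a clone or a library (adjusted p up to 0.741), and the Ctsc call without clone 2 or clone 3 (up to 0.257).

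Lgmn encodes legumain, a protease that cleaves after asparagine (chromosome 12, 102394084 to 102439813). It had 353, 405 and 329.5 CPM in MEF and 458, 554 and 437 CPM in MEF+B12, followed by 342, 308 and 315 CPM in OSKM and 355, 417 and 419 CPM in OSKM+B12. The groups did not overlap in either state, although the induced pair of clone 1 was only 0.05 apart on the log2 scale. The B12 average was 0.36 ± 0.06 on the log2 scale (adjusted p 0.00882).

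Ctss encodes cathepsin S, a cysteine protease that processes the invariant chain in antigen-presenting cells (chromosome 3, 95526786 to 95556403). It had 129, 128 and 97 CPM in MEF, 158, 191 and 136 CPM in MEF+B12, 118, 129.9 and 96.4 CPM in OSKM and 112, 182 and 137 CPM in OSKM+B12. It was higher with B12 in 5 of 6 pairs and lower in the induced pair of clone 1, so the induced groups overlapped and the uninduced groups did not. The B12 average was 0.39 ± 0.08 (log2, adjusted p 0.0223).

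Ctsd (chromosome 7, 142375911 to 142388038) had 951, 1111 and 1007 CPM in MEF and 1115, 1425 and 1234 CPM in MEF+B12. Induced cells had 818, 876 and 968 CPM in OSKM and 851, 1064 and 1192 CPM in OSKM+B12. All 6 pairs were higher with B12, the uninduced groups by a narrow gap and the induced groups with overlap. Its B12 average was 0.25 ± 0.06 (log2, adjusted p 0.0374), the smallest and the closest to the threshold of the 5. Without clone 2, Ctsc alone of the list passed (0.176% of all genes rose), and without clone 3, Ctsc and Gusb passed (1.63%). Without clone 1, Ctsc, Ctss, Gusb and Lgmn passed (2.75% of all genes in either direction). The calls of Ctsd and Ctss ended in 11 and 10 of the 15 fits that left out a clone or a library, among them those without any 1 library of clone 2 and those without the MEF or OSKM+B12 library of clone 3.

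**Figure D2:**
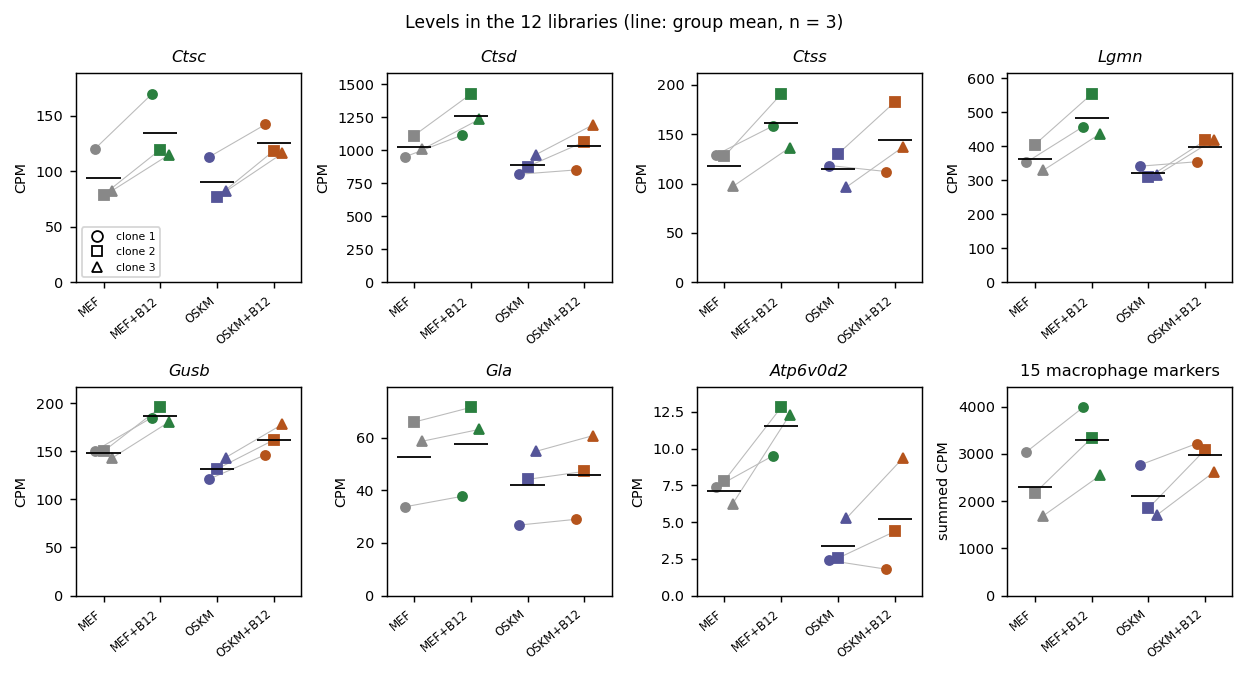
CPM in each of the 12 libraries for the 5 genes that rose with B12, for Gla and Atp6v0d2, and the summed CPM of 15 macrophage markers. Symbols mark clones, grey lines join the libraries of a clone without and with B12, and black lines are group means (n = 3). Ctsc, Gusb and Lgmn rise in every pair, and the macrophage sum does too.

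Markers of another cell type moved with these genes. The 15 macrophage markers (such as Csf1r, Adgre1 and the C1q chains) all rose with B12 on average, where 3.46% of all genes rose. The log2 fold changes of these markers lay between 0.33 (Mpeg1) and 0.95 (Fcgr1), with a median of 0.56. Their summed level was 1689 to 3039 CPM in MEF, 2542 to 3983 CPM in MEF+B12, 1704 to 2763 CPM in OSKM and 2611 to 3217 CPM in OSKM+B12, and none was at 0 counts. Cx3cr1, a chemokine receptor gene of macrophages that was not on the list and is named with its value known, had a B12 average of -0.45 ± 0.20 (log2, adjusted p 0.296), at 1.41 to 6.56 CPM. Of 2 genes of the marker list, Cd68 and Laptm5, the products are themselves lysosomal membrane proteins. Fibroblast markers had lower values with B12 in 11 of 11 genes (median -0.11), against 10562 of all 19174 genes tested. Of the 11, Prrx1 fell (-0.15 ± 0.03, adjusted p 0.0336), where 0.381% of all genes fell. The part of macrophages in the B12 differences of the lysosomal genes was not tested, and in bulk RNA more cells of a type and more RNA per cell cannot be told apart.

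Among the 12 proteases, all 12 had a positive B12 average, with a median of 0.14, and 4 passed. Ctsb, higher in 6 of 6 pairs, had a log2 fold change of 0.20 ± 0.06 (adjusted p 0.101). Ctsf, a cathepsin at 40.9 CPM on average, was the flattest of the proteases at 0.01. Of the 10 glycosidases, Gusb passed, 6 had positive values and 4 negative, and the median was 0.06. Gaa, the acid α-glucosidase that degrades glycogen, had the lowest value of the list, -0.13 ± 0.04 (adjusted p 0.105). Its levels were 340.2, 571 and 547 CPM in MEF, 325, 500.3 and 527 CPM in MEF+B12, 357, 496 and 544 CPM in OSKM and 302, 458 and 499.6 CPM in OSKM+B12. It was lower with B12 in 6 of 6 pairs, although the groups overlapped, with clone 1 the lowest in each.

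The 5 sulfatases, which remove sulfate groups from glycosaminoglycans and sulfatides, had a median of -0.05 and a range from -0.07 to 0.07. Of the 6 genes of lipid and thioester breakdown, Lipa (lysosomal acid lipase) was nearest to the threshold, 0.23 ± 0.06 with an adjusted p of 0.064. It was followed by Grn (progranulin) at 0.15 ± 0.04 with an adjusted p of 0.0872. Npc1 and Npc2, which export cholesterol from the lysosome, had values of 0.10 and 0.01. Lamp1, Lamp2, Scarb2 and the calcium channel gene Mcoln1 stayed between -0.02 and 0.02, and Tfeb was at -0.01 ± 0.05. Their SE lay between 0.04 and 0.05.

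Atp6v0d2 (chromosome 4, 19876841 to 19922605) had the largest B12 value in the fit of all libraries and did not pass. It had 7.36, 7.81 and 6.26 CPM in MEF, 9.5, 12.8 and 12.3 CPM in MEF+B12, 2.39, 2.54 and 5.26 CPM in OSKM and 1.79, 4.36 and 9.37 CPM in OSKM+B12. The uninduced groups did not overlap, the induced groups did, and clone 1 was lower with B12 when induced. Its B12 average was 0.59 ± 0.25 (log2, adjusted p 0.295). It was 0.29 without the OSKM+B12 library of clone 3 and 0.81 without clone 1, while Ctsc stayed between 0.45 and 0.55 over the 15 fits that left out a clone or a library. Of 6 osteoclast markers, 5 were tested and had positive B12 averages with a median of 0.84, of which Dcstamp rose (1.64 ± 0.38, adjusted p 0.0397). Calcr was at most 0.206 CPM in any library. Levels were also low for Dcstamp (0.03 to 4.24 CPM), Ocstamp (at most 1.99 CPM) and Oscar (at most 0.941 CPM). Mmp9 (14.0 to 158 CPM) and Acp5 (6.16 to 52.6 CPM) were higher and did not pass.

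**Figure D3:**
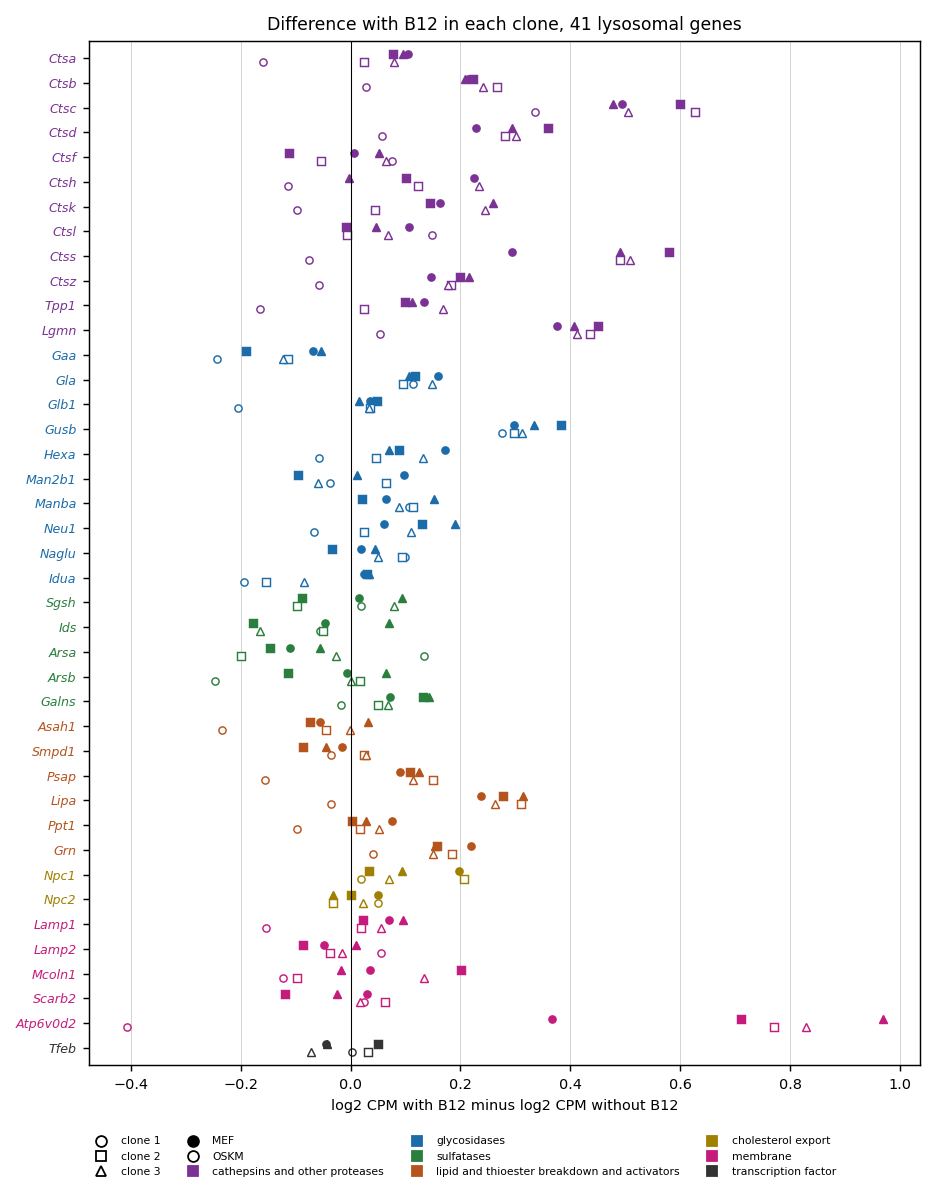
Difference in log2 CPM with minus without B12 for each of the 41 genes, in MEF (filled) and OSKM (open) of each clone, coloured by role. Ctsc, Gusb and Lgmn lie right of 0 in 6 of 6 pairs. The open circles (induced cells of clone 1) lie left of 0 for 23 of 41 genes, near the share of all genes (50.9%).

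Across the list, 9 of 41 genes were higher with B12 in 6 of 6 pairs, against 8.0% of all genes, and 1 (Gaa) was lower in all, against 7.64%. All libraries of MEF+B12 lay above all of MEF for 6 genes (5.85% of all genes), and all of OSKM+B12 above all of OSKM for 3 (4.80%). The pairs did not behave alike. In uninduced cells 33, 28 and 33 of the 41 genes were higher with B12 in clones 1, 2 and 3. The shares of all genes there were 46.9%, 47.6% and 47.2%. In induced cells 30 and 33 were higher in clones 2 and 3, against 47.4% and 50.0% of all genes. In induced cells of clone 1, 18 were higher, near the share of all genes (49.1%). The median there was -0.04, against -0.01 over all genes. The OSKM+B12 library of clone 1 held the lowest of the 12 values for 17 of the 41 genes, against 10.1% of all genes, and its OSKM library for another 14, against 18.9%.

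Whether the B12 difference depended on induction was tested as an interaction. None of the 41 genes passed (edgeR), nor did any of all genes tested (0.00%), with 1 of the 41 lower and 0 higher at an unadjusted p under 0.05 (0.615% and 0.808% of all genes) and none by DESeq2. That gene was Idua (α-L-iduronidase, which degrades dermatan and heparan sulfate), with an interaction of -0.17 ± 0.06 and an adjusted p of 1. Idua had 25.9, 29.2 and 26.7 CPM in MEF, 26.3, 29.8 and 27.3 CPM in MEF+B12, 26.7, 30.5 and 27.9 CPM in OSKM and 23.3, 27.5 and 26.3 CPM in OSKM+B12. It was higher with B12 in all 3 uninduced pairs and lower in all 3 induced pairs, and the groups overlapped in each state. Arsa (arylsulfatase A) had the largest positive interaction, 0.07 ± 0.09, with 92.5, 133 and 122 CPM in MEF, 85.6, 121 and 118 CPM in MEF+B12, 76.1, 130.3 and 125 CPM in OSKM and 83.5, 113 and 122 CPM in OSKM+B12.

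The next question was how induction of the factors changed the list. No gene of the 41 passed in either direction without B12 (edgeR), where 0.0730% of all genes rose and 0.00% fell, and none passed with B12, where 0.104% rose and 0.00% fell. At an unadjusted p under 0.05, 12 of the 41 were lower and 0 higher without B12, against 9.92% and 9.07% of all genes. With B12 21 were lower and 0 higher, against 8.17% and 6.71%. DESeq2 called 2 genes without B12 (Gla and Naglu; 2.75% of all genes in either direction) and 4 with B12 (Ctsb, Ctsd, Ctsk and Gla; 2.35%). By direction alone, 36 of 41 log2 fold changes were below 0 without B12 (52.0% of all genes) and 40 of 41 with B12 (49.4%), with medians of -0.09 and -0.13 against -0.01 and 0.00 over all genes tested. The median without B12 was -0.043 without clone 2, -0.056 without its OSKM library, -0.15 without clone 3 or without its MEF library, and -0.031 with library totals as scaling, where that of all genes was 0.046.

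Atp6v0d2 had the largest negative values, -1.17 ± 0.37 without B12 (adjusted p 0.169) and -1.30 ± 0.35 with B12 (adjusted p 0.176). All libraries of MEF lay above all of OSKM for Ctsb, Npc1 and Atp6v0d2 (4.32% of all genes). With B12, the same held for Npc1, Gusb, Lgmn and Atp6v0d2 (5.04%). Markers of osteoclasts, in which this V-ATPase subunit is known, had negative values in 5 of 5 genes tested (median -1.55 without B12), and none passed. The summed level of the 6 markers was 88.7 to 134 CPM in MEF and 20.8 to 79.2 CPM in OSKM. With B12 it was 140.1 to 214 CPM in MEF+B12 and 22.3 to 168 CPM in OSKM+B12. Mmp9 and Acp5, at up to 158 and 52.6 CPM, made up most of that sum. The part of osteoclasts in the Atp6v0d2 values was not tested. Of the 15 macrophage markers none passed with induction, with medians of -0.16 and -0.20. The 6 endothelial markers summed to 41.9 to 46.6 CPM in MEF and 53 to 145 CPM in OSKM, and none of the 3 tested passed. Tek alone, at 34.3 to 139 CPM over the 12 libraries, made up most of that sum. Kdr was at most 6.46 CPM with an induction value of -0.02 without B12, and Cdh5 was at most 3.00 CPM. Pecam1, Tie1 and Emcn were at most 0.279, 0.184 and 0.0519 CPM and were not tested.

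At the other end, Mcoln1 had the largest positive value without B12, 0.08 ± 0.06 (adjusted p 0.519). It had 30, 35.3 and 36.2 CPM in MEF, 30.7, 40.6 and 35.8 CPM in MEF+B12, 32.7, 38.7 and 35.5 CPM in OSKM and 30, 36.2 and 39 CPM in OSKM+B12, with wide overlap. Tfeb had the largest with B12, 0.05 ± 0.07 (adjusted p 0.795). It had 13.7, 11.1 and 13.3 CPM in MEF, 13.3, 11.5 and 12.9 CPM in MEF+B12, 12.8, 12.4 and 14.1 CPM in OSKM and 12.8, 12.7 and 13.4 CPM in OSKM+B12, also overlapping.

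**Figure D4:**
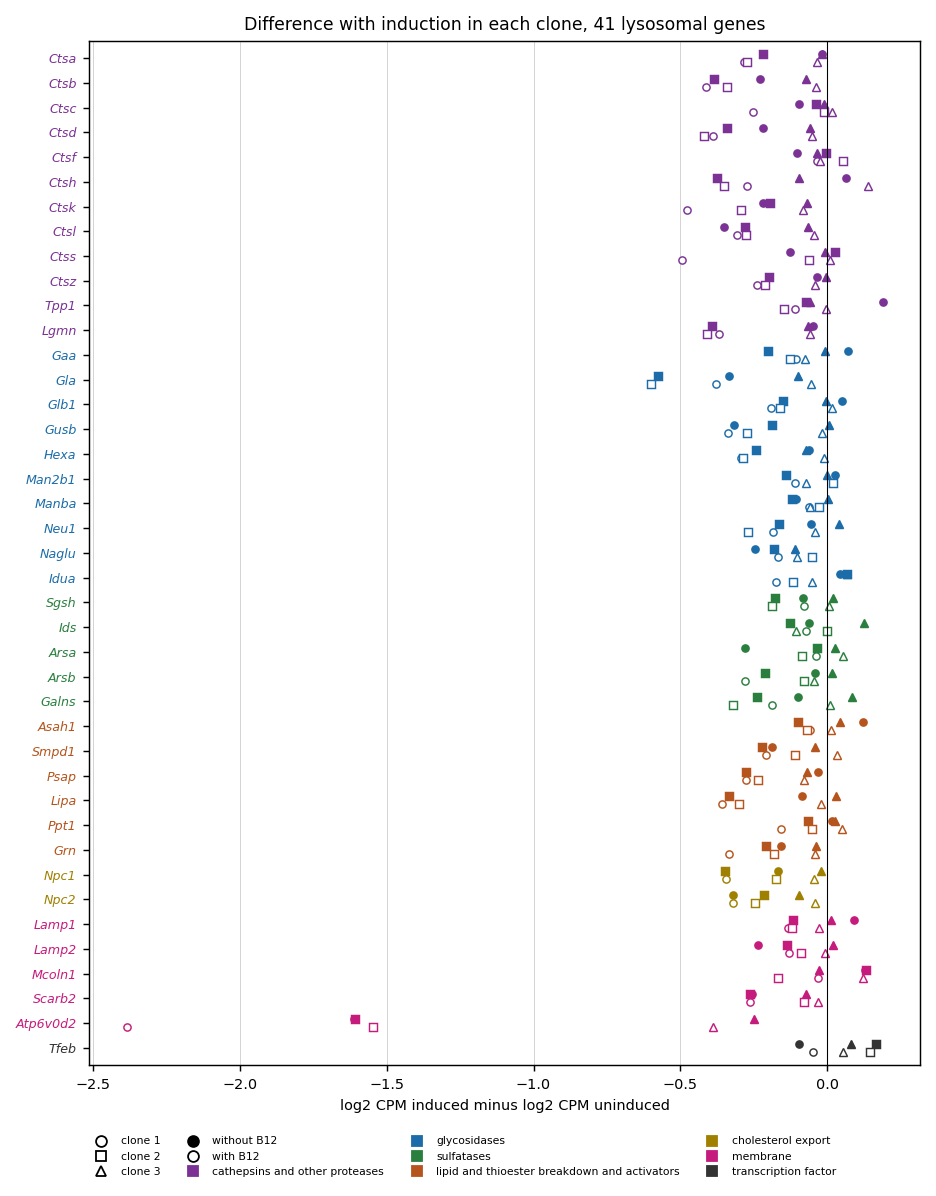
Difference in log2 CPM induced minus uninduced for each of the 41 genes and each clone, without B12 (filled) and with B12 (open), coloured by role. Most points lie left of 0, those of clone 3 (triangles) are mostly nearest to it, and Atp6v0d2 reaches -2.38 in clone 1.

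The size of these differences followed the clone. The smallest absolute induction difference of the 3 clones was that of clone 3, where Oct4 was least induced, for 32 of 41 genes without B12 (56.3% of all genes) and 33 of 41 with B12 (50.9%). Over the 41 genes the median difference without B12 was -0.10, -0.19 and -0.01 in clones 1, 2 and 3, and with B12 it was -0.24, -0.17 and -0.03. In clone 1 with B12 all 41 genes were lower when induced, against 51.2% of all genes. The genes lower in 6 of 6 pairs were 16 of 41, against 8.26% of all genes, and 0 were higher in all, against 7.34%. Among the 16 were 7 of the 12 proteases and both cholesterol exporters.

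Without clone 3, 7 genes fell with induction without B12, where 3.57% of all genes fell: Ctsb, Ctsl, Npc2, Gla, Gusb, Scarb2 and Atp6v0d2. With B12, 9 fell, where 2.76% of all genes fell: Ctsb, Ctsd, Ctsk, Ctsl, Npc2, Gla, Gusb, Hexa and Atp6v0d2. In those fits Gla fell by 0.46 and 0.49 on the log2 scale (adjusted p 0.0169 and 0.0127), Ctsb fell by 0.30 and 0.38 (0.0430 and 0.0226), and Atp6v0d2 fell by 1.62 and 1.91 (0.0122 and 0.00589). None rose, where 3.30% and 2.46% of all genes did. Without the OSKM library of clone 3 alone, 2 genes (Naglu and Scarb2) passed without B12, which is the share of all genes that did (4.91%). Without its OSKM+B12 library 2 (Ctsk and Atp6v0d2) passed with B12, against 0.999% of all genes. These fits compared 2 embryos in the induced groups.

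Gla was the single gene of the list whose induction response differed between clones (adjusted p 0.0125, quasi-likelihood F test of the clone by state terms), where 2.15% of all genes did. At an unadjusted p under 0.05 it was 1 of 14 genes, against 14.8% of all genes. It encodes α-galactosidase A, which removes terminal galactose from glycolipids, and lies on chromosome X, 134588149 to 134601125. In MEF it had 33.8, 65.9 and 58.7 CPM, in MEF+B12 37.7, 71.5 and 63.2 CPM, in OSKM 26.8, 44.2 and 54.8 CPM, and in OSKM+B12 29, 47.2 and 60.8 CPM. The log2 induction differences without B12 were -0.33, -0.58 and -0.10 in clones 1 to 3, and with B12 -0.38, -0.60 and -0.06. Clone 2 had the widest gap and clone 3 the narrowest, in both media. Gusb (adjusted p 0.0631) and Atp6v0d2 (0.0723) came next. The count of such genes rested on single libraries, and calls over all genes moved with it. It was 8 without clone 1 (3.79% of all genes), 9 without its OSKM library (4.30%) and 13 without its OSKM+B12 library (13.6%), Gla among them each time. It was 0 without clone 2 (1.01% of all genes) or clone 3 (0.00%), and in 8 fits without 1 library, the MEF libraries among them (0.225% to 1.24%).

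Clone 1 also had lower levels of many of these genes in every group. Its 4 libraries lay below the other 8 for 20 of 41 genes, against 8.88% of all genes, and above them for 0, against 7.98%. Ctsk, the collagen-degrading cathepsin K, had 229 to 318 CPM in clone 1 and 397 to 668 CPM in clones 2 and 3, a mean 1.92 times higher in the latter. Gla was 1.83 times, Naglu (α-N-acetylglucosaminidase, an enzyme of heparan sulfate breakdown) 1.63 times and Gaa 1.57 times higher in clones 2 and 3. Ctsc went the other way, at 0.725 times. The macrophage sum, too, was highest in clone 1 within each group. Clone 1 differed from clones 2 and 3 in Xist, in the year of its titles and in the embryo, which cannot be told apart.

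**Figure D5:**
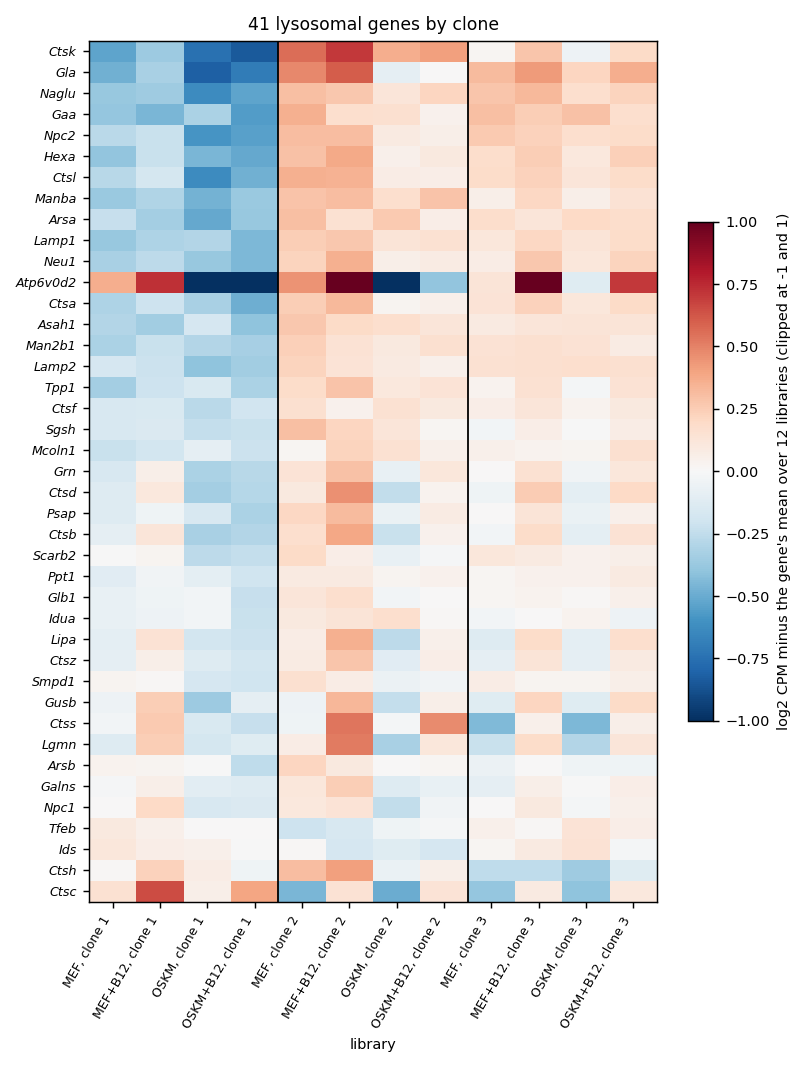
Log2 CPM of each of the 41 genes minus its mean over the 12 libraries, with libraries ordered by clone and genes by the ratio of clones 2 and 3 to clone 1. The 4 libraries of clone 1 are blue for most genes from Ctsk downwards, and Ctsc, at the bottom, is the reverse.

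Other lysosomal genes were followed in 5 lists. The list of hydrolases and activators also held Tcn2, the gene of the B12 transporter transcobalamin II, and Acp5, counted above among the osteoclast markers. Of all genes tested, 3.46% rose and 0.381% fell with B12 on average, which are the shares to set beside each count. With B12 on average, 2 of 33 other hydrolases and activators rose, Hgsnat (0.44 ± 0.06, adjusted p 0.00141), an acetyltransferase of heparan sulfate breakdown, and Dnase2a (0.29 ± 0.05, adjusted p 0.00696), the acid DNase. Of 30 other membrane proteins 4 rose, Mfsd12 (0.44), Gpr137b (0.36), Cln3 (0.31) and Clcn7 (0.16), the last a chloride-proton exchanger. Of 20 V-ATPase subunits tested 6 rose, led by Tcirg1 (0.32), Atp6v1b2 (0.30), Atp6v1c1 (0.30) and Atp6v0a1 (0.28), and of 30 genes of enzyme sorting 5 rose, among them Nagpa (0.27), which uncovers the mannose 6-phosphate signal, and Cln8 (0.27). Tfec, a relative of TFEB, rose by 1.08 ± 0.16 (adjusted p 0.00255), alone among 15 regulators. None fell in any of the 5 lists, and their medians lay between 0.01 and 0.08. With induction without B12, 0 genes of the 5 lists passed (edgeR), and at an unadjusted p under 0.05 there were 10 of 33, 10 of 30, 9 of 20, 5 of 30 and 4 of 15 in either direction, against 19.0% of all genes. With B12, 0 passed and the unadjusted counts were 14, 8, 14, 7 and 5, against 14.9%. The list medians were between -0.10 and -0.07 without B12.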

How the data were processed

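The deposited values are raw counts of read pairs per gene in 12 libraries, made by the authors from stranded poly(A) libraries aligned to mm10 (GRCm38) with STAR (2.5.2 in the submitters' processing notes) and counted with featureCounts on Ensembl 97, with the runs of a library added together. Reads that match several genes, and PCR copies without molecular tags, limit the counts. Symbols and 1-based coordinates came from GENCODE M21 (55480 of 55573 identifiers matched), promoter windows from RefSeq (GRCm38.p6).

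Counts were filtered by filterByExpr, scaled by TMM and fitted in edgeR 4.0.16 (R 4.3.3) with group and clone as terms over all 12 libraries. Each embryo gave 1 library of every group, so the clone was used as a block: deviations of the same clone correlated at 0.27 to 0.69, those of different clones at -0.51 to 0.17. The biological coefficient of variation was 8.04%, which sets the precision at these depths. Adjusted p-values cover all genes tested. Log2 differences between paired libraries used a prior count of 2. SE is the log2 fold change over the root of F. The fit was tested on simulated data in which clones differed in level only and B12 changed a set of genes. Responses that differ between clones were not simulated, so that setting was not checked. Alternatives were DESeq2 1.42.0, other scalings and filters, fits of fewer libraries, no block, and the longest transcript as length. All 41 genes are described by role, in full those past the threshold in any comparison and the largest rise and fall of each. The genes and lists were chosen with earlier results of these data known.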

Additional observations from a re-analysis of the deposited data

Results flagged for a closer look

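The induction response of Gla differed between the 3 clones, with an adjusted p of 0.0125 from the quasi-likelihood F test of the clone by state terms. Its log2 induction differences lay between -0.60 (clone 2 with B12) and -0.06 (clone 3 with B12). Oct4 was least induced in clone 3, and its part in the Gla response was not tested. The call ended in 10 of the 15 fits that left out a clone or a library, with adjusted p-values from 0.00172 to 0.871.

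Idua was higher with B12 in all 3 uninduced pairs and lower in all 3 induced pairs, and by the same numbers it was higher with induction in all 3 clones without B12 and lower in all 3 with B12. The interaction was -0.17 (log2, adjusted p 1), so the test of the difference did not pass. The pair differences were at most 0.03 in uninduced cells and between -0.19 and -0.09 in induced cells.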

How the results depend on the processing

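The number of the 41 genes past the threshold depended on the fit, and so did the share of all genes (given in parentheses, either direction). DESeq2 gave 2 (2.75%) and 4 (2.35%) for induction without and with B12, 3 (2.45%), 5 (2.90%) and 9 (5.39%) for B12 in OSKM, in MEF and on average, and 3 (3.60%) for the response between clones. With no filter on low counts these were 2 (2.06%), 5 (1.95%), 3 (1.10%), 5 (1.28%), 7 (2.51%) and 7 (3.80%). Library totals as scaling gave 2 (1.38%) in OSKM and 9 (4.59%) on average, and fits of the compared libraries alone gave 12 (4.58%) for B12 in MEF. With no replicate block, in which the pairing by clone is ignored, the count fell to 0 (0.00%) in OSKM, 0 (0.00%) in MEF and 1 (0.469%, Gusb) on average.

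Leaving out a clone or a library gave 0 to 7 (0.00518% to 6.87%) for induction without B12. With B12 it gave 0 to 9 (0.00518% to 5.22%). For B12 it gave 0 to 2 (0.00% to 1.54%) in OSKM, 0 to 4 (0.00% to 1.73%) in MEF and 1 to 6 (0.176% to 4.03%) on average. For the interaction it gave 0 (0.00%), and for the response between clones 0 to 13 (0.00% to 13.6%). Without clone 2 the B12 average gave 1 (Ctsc, 0.176%) and without clone 3 it gave 2 (1.65%). Both fits gave 0 in OSKM and in MEF. The shares of all genes in OSKM and in MEF were 0.00% and 0.00% without clone 2. Without clone 3 they were 0.0676% and 0.151%. The highest counts for induction were those without clone 3. Over these fits the B12 log2 fold change of Atp6v0d2 in OSKM lay between -0.081 (without the OSKM+B12 library of clone 3) and 0.90, and the Arsa interaction between -0.017 (without clone 1; -0.01 without its OSKM library) and 0.13. The cause was not tested. Scaling by library totals moved the median of all genes from -0.01 to 0.05 for induction without B12. Ctsc kept its call for the B12 average in every fit except that without the block. Low levels limit Atp6v0d2, whose counts were between 122 and 835 per library.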
